A study of Mus musculus with 30 samples.

Results

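10 genes that make, process or break down prostaglandins and leukotrienes were followed in mouse macrophages grown from bone marrow, by RNA sequencing. They were taken by symbol from 55414 genes counted, and each was found under 1 gene ID. They are Ptgs1, Ptgs2, Ptges, Ptges2, Ptgis, Hpgds and Hpgd of the prostaglandin branch and Alox5, Alox5ap and Alox15 of the lipoxygenase branch. Of these, 8 had enough reads to be tested, and Ptgis and Alox15 did not. Marrow came from TRα1PV mice, transgenic for a mutation of thyroid hormone receptor α1, and from wild-type (WT) mice. It was cultured for 7 days with 10% fetal bovine serum and 15 or 20% medium conditioned by L929 cells, a mouse fibroblast line that secretes the macrophage growth factor M-CSF. Cells of each genotype were left unstimulated (M0), given 20 ng/mL lipopolysaccharide (LPS, a bacterial cell wall component) with 20 ng/mL interferon-γ (M1), or given 20 ng/mL interleukin-4 (M2). Each of the 6 groups had 5 libraries numbered as biological replicates, 30 in all. Zygosity, sex and age of the mice, the length of stimulation, and whether libraries of 1 number share an animal are not stated in the sources at hand, so p-values measure the spread between these libraries.

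Prostaglandin synthesis starts when a phospholipase A2 frees arachidonic acid from membrane lipid. The cyclooxygenases, constitutive Ptgs1 and inducible Ptgs2, turn it into prostaglandin H2, which terminal synthases convert to single prostanoids: Ptges and Ptges2 to prostaglandin E2, Hpgds to prostaglandin D2 and Ptgis to prostacyclin. Hpgd oxidizes and so inactivates prostaglandins. In the other branch Alox5, with its partner protein Alox5ap, makes leukotriene A4, and Alox15 oxygenates arachidonic and linoleic acid. Macrophages are known to switch on Ptgs2 and Ptges when they meet LPS, and ALOX15 is well known as an interleukin-4 response gene of human monocytes.

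The counts showed large changes between states and smaller ones between genotypes. With LPS and interferon-γ, Ptgs2, Ptges and Ptges2 rose and Ptgs1, Hpgds, Hpgd, Alox5 and Alox5ap fell in both genotypes. With interleukin-4, Ptgs1, Ptgs2 and Ptges2 rose and Hpgds, Hpgd, Alox5 and Alox5ap fell. Between genotypes, TRα1PV cells had more Ptgs1 and Hpgd and less Ptges and Ptges2 in M0, more Ptgs1 and less Ptgs2 in M1, and more Hpgd and Hpgds in M2. Of these, the Ptges difference in M0 fell short under 6 of 18 other settings of the fit. The Hpgds difference in M2 did so under 9 of 17.

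The start regions of the inducible cyclooxygenase Ptgs2 and of Ptges, both high in M1, and those of Ptgs1 and Hpgd, both low in M1, are shown to set side by side what precedes genes that moved in opposite directions. RefSeq start regions on mouse build GRCm38.p6 were matched for 7 of the 10 genes, and the coordinates are of that build, while the counts were made on GRCm39. Each region runs 5′ to 3′ on the gene's strand, from 250 bases before the annotated start to 30 bases after it, and capitals mark matches to any of 9 motifs.
Ptgs2, chr1:150099781-150100060, plus strand: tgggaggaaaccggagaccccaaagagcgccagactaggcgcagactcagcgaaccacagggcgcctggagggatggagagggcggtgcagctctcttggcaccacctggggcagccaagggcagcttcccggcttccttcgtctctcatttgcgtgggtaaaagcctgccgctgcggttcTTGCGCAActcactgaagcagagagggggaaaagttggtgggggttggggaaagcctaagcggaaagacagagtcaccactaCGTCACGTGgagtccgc
Ptges, chr2:30903268-30903547, minus strand: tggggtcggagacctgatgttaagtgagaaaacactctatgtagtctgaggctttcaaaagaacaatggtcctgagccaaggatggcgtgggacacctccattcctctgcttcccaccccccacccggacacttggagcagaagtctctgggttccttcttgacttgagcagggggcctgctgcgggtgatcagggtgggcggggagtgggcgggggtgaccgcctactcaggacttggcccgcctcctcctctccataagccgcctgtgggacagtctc
Ptgs1, chr2:36230176-36230455, plus strand: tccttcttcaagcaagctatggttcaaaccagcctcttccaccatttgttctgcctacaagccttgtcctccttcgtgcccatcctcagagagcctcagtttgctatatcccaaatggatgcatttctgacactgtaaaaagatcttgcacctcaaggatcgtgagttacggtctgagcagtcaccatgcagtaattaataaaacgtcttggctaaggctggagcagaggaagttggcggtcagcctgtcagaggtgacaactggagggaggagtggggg
Hpgd, chr8:56294302-56294581, plus strand: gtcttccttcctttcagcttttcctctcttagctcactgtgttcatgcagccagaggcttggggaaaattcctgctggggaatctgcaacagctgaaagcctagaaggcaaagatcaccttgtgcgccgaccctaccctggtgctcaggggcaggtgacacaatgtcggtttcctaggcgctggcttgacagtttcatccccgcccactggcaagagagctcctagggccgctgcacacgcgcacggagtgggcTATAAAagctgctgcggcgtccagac

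The motifs were searched on both strands: the TATA box (TATAAA), the cAMP response element (TGACGTCA) and its short form (TGACG), the E-box (CACGTG), a kappa B site (GGNNTTTCC), the C/EBP palindrome (TTGCGCAA), the AP-1 site (TGANTCA), the GAS site (TTCNNNGAA) and the interferon response element (GAAANNGAA). Ptgs2 held 3 matches. A C/EBP palindrome began 69 bases before the annotated start, and a short form of the cAMP response element at base 14 after it overlapped an E-box at base 17. Among 32851 start regions of this length the palindrome was in 0.18%, the short form in 19.9% and the E-box in 6.79%. Hpgd had a TATA box at base 5 after its annotated start (13.1% of all regions), and Ptges2, not shown, an E-box 77 bases before its start. Ptges and Ptgs1 held none of the 9. Shares of the other motifs were 1.74% for the full cAMP response element, 5.49% for the kappa B site, 7.46% for AP-1, 7.83% for GAS and 8.06% for the interferon response element. A match describes these letters around the annotated start. Its use, and where transcription starts in these cells, were not measured.

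Libraries held 23015952 to 59086252 reads in genes. Levels are given as CPM, a gene's reads scaled to library size with TMM factors, which compares a gene between libraries but, without gene lengths, not 1 gene with another. Changes are log2 fold changes with a standard error (SE) from 1 fit over all 15686 tested genes, and called means an adjusted p (Benjamini-Hochberg) under 0.05 by edgeR's quasi-likelihood test. In bulk RNA, fewer cells of a type and less RNA per cell cannot be told apart. All 10 macrophage markers were detected in every group, with summed levels of 27933 to 33235 CPM in TRα1PV M0 and 30913 to 35694 CPM in WT M0, 8057 to 11321 CPM in TRα1PV M1 and 9096 to 10939.7 CPM in WT M1, and 19707 to 22405 CPM in TRα1PV M2 and 20781 to 23508 CPM in WT M2. The B cell and the T and NK cell lists stayed under 1 CPM in every library. Thra, the gene of the mutated receptor, averaged 56.1 ± 4.03 CPM in TRα1PV M0 and 24.5 ± 1.91 CPM in WT M0 (SD, n = 5 each), and TRα1PV libraries were above WT libraries in every state without overlap. In M0, markers of granulocyte precursors also differed between genotypes (9 higher and 2 lower in TRα1PV of 11 tested). Their summed level over 13 genes overlapped, at 283 to 479 CPM in TRα1PV M0 and 357 to 497 CPM in WT M0, with the lower median in TRα1PV (308 CPM in TRα1PV M0 and 373 CPM in WT M0). The 2 lower genes were Csf3r (106 CPM in TRα1PV M0 and 218 CPM in WT M0) and Mmp8 (3.39 CPM in TRα1PV M0 and 76.8 CPM in WT M0). Genotypes also differed in 2 of 3 tested eosinophil and 2 of 3 tested endothelial markers, all higher in TRα1PV, and the part of such cells in the results was not tested. WT M0 replicate 2 had 4.56% mitochondrial reads, where the other WT M0 libraries had 0.921 to 2.07%. Genes of the list whose call changes without this library are given both ways. Reads outside genes, as a share of those in, outside or ambiguous between genes, made up 11.73 to 14.37% in TRα1PV M0. They made up 13.89% in WT M0 replicate 2 and 9.42 to 11.67% in the other WT M0 libraries. In M0 this share, used below as a covariate, thus ran largely with genotype, and the effects of each cannot be fully told apart. In TRα1PV the share also ran with state, at 9.48 to 11.30% in M1 and 9.34 to 11.54% in M2, all below M0. Covariate values for M1 or M2 over M0 in TRα1PV therefore have the same limit.

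**Figure D1:**
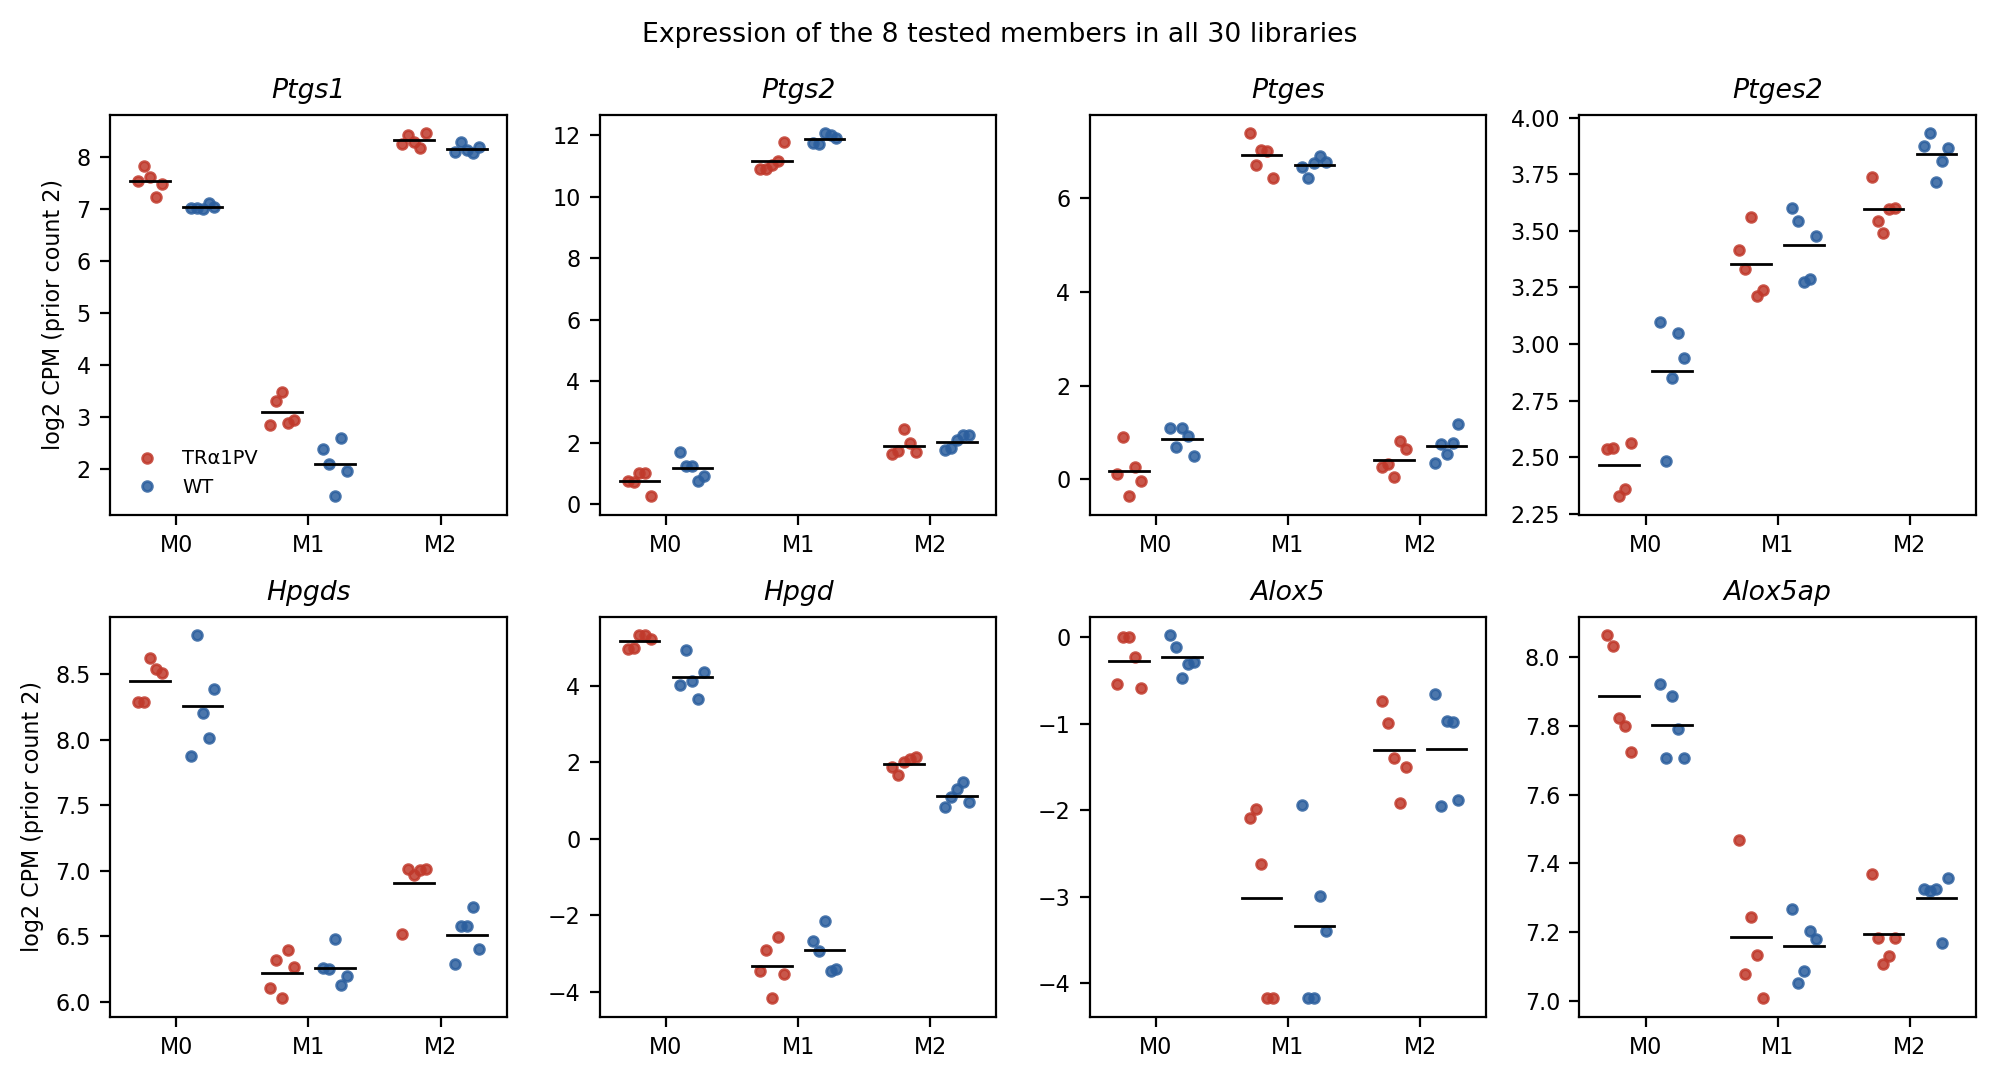
Log2 CPM (vertical axis, prior count 2) of the 8 tested genes in M0, M1 and M2, with 5 TRα1PV libraries left of 5 WT libraries in each state and lines at the means. Ptgs2 and Ptges are highest in M1, Ptgs1 is lowest in M1, and Hpgd and Hpgds are highest in M0.

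Of the cyclooxygenases, inducible Ptgs2 had the largest change of the 8 genes. It had 1928, 1923, 2100.5, 2272 and 3476 CPM in TRα1PV M1 libraries, against 1.62, 1.60, 1.96, 1.94 and 1.14 CPM in TRα1PV M0 libraries. In WT it had 3411, 3373, 4315, 4089.6 and 3863 CPM in M1, against 3.17, 2.32, 2.28, 1.61 and 1.84 CPM in M0. Every M1 library lay far above every M0 library. The log2 change was 10.44 (SE 0.23, adjusted p = 3.79e-26) in TRα1PV and 10.73 (SE 0.24, adjusted p = 2.58e-26) in WT. With interleukin-4, Ptgs2 averaged 3.76 ± 0.982 CPM in TRα1PV M2 and 4.08 ± 0.645 CPM in WT M2 (SD, n = 5 each), also above all M0 libraries of the same genotype. This change over M0 was 1.15 (SE 0.20, adjusted p = 1.02e-05) in TRα1PV and 0.87 (SE 0.20, adjusted p = 0.000511) in WT, so the order of levels was M0, M2, M1, lowest first, in both genotypes.

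Within M1, 4 of the 5 TRα1PV libraries had less Ptgs2 than every WT library, and TRα1PV replicate 5 lay among the WT libraries. The means were 2339.9 ± 651 CPM in TRα1PV M1 and 3810.2 ± 414 CPM in WT M1 (SD, n = 5 each), a log2 change of -0.70 (SE 0.15, adjusted p = 0.00134). Ptgs2 was called in M1 in all 17 alternatives run, with a change of -0.89 to -0.64 when 1 library was left out. The genotype values were -0.41, adjusted p = 0.152, in M0 and -0.12, adjusted p = 0.705, in M2, and did not pass. A difference of the genotype effect on Ptgs2 was not shown between M1 and M0, at -0.30 (SE 0.26, adjusted p = 0.415), or between M1 and M2, at -0.58 (SE 0.24, adjusted p = 0.0786). Without TRα1PV M1 replicate 5 the value for M1 minus M2 was -0.77 and passed (adjusted p = 0.011).

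Both non-coding neighbours of Ptgs2, the opposite-strand genes Ptgs2os and Ptgs2os2, were higher in M1 as well. Ptgs2os had no read in the 10 M0 libraries, which allows up to 0.0139 CPM in TRα1PV M0 and 0.0178 CPM in WT M0 (3 counts over the group). In M1, Ptgs2os had 6.74, 5.54, 5.47, 7.18 and 7.44 CPM in TRα1PV and 9.67, 9.10, 9.42, 11.4 and 10.2 CPM in WT. Its M1 level was at least 465-fold higher than in M0 in TRα1PV and at least 560-fold higher in WT. All 5 TRα1PV M1 libraries lay below all 5 WT M1 libraries, with a log2 change of -0.62 (SE 0.14, adjusted p = 0.00428). Ptgs2os2 averaged 8.40 ± 1.94 CPM in TRα1PV M1 and 10.8 ± 1.36 CPM in WT M1 (SD, n = 5 each), with overlap and no call (-0.36, adjusted p = 0.192). In the GENCODE M21 annotation no gene overlaps Ptgs2.

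**Figure D2:**
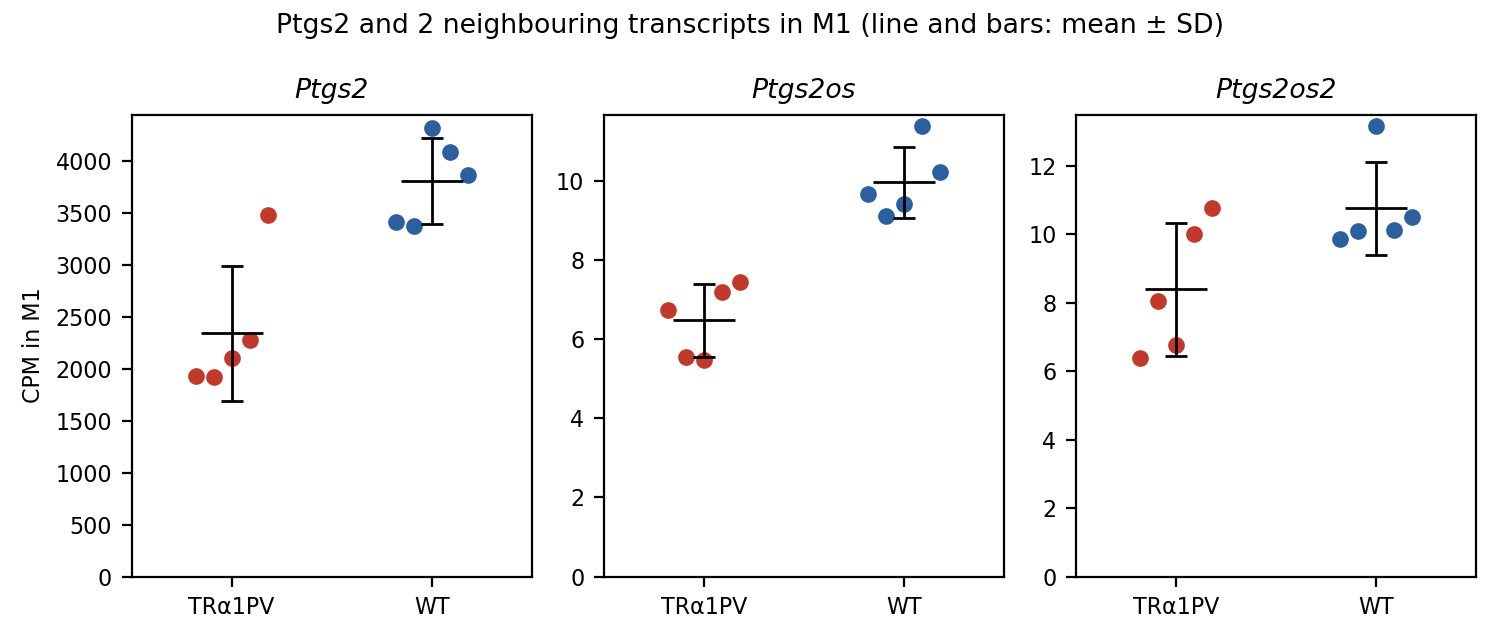
CPM in M1 (vertical axes, from 0) of Ptgs2, Ptgs2os and Ptgs2os2 in 5 TRα1PV libraries (left) and 5 WT libraries (right), with mean and SD. For Ptgs2, 4 of 5 TRα1PV libraries lie below all WT libraries and 1 does not, and for Ptgs2os the genotypes do not overlap.

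Ptgs1, the constitutive cyclooxygenase, was lower in M1 than in M0. It had 7.21, 9.86, 11.2, 7.40 and 7.68 CPM in TRα1PV M1 and 5.19, 4.25, 2.74, 6.04 and 3.87 CPM in WT M1. In M0 it had 184, 227, 196, 150.0 and 177 CPM in TRα1PV and 128, 128, 127, 139 and 130.1 CPM in WT. In both states every TRα1PV library was above every WT library. The log2 change of M1 over M0 was -4.43 (SE 0.14, adjusted p = 1.32e-22) in TRα1PV and -4.88 (SE 0.15, adjusted p = 4.6e-23) in WT. With interleukin-4, Ptgs1 had 304, 339, 312, 288 and 351 CPM in TRα1PV M2 and 273, 311, 278, 268 and 292 CPM in WT M2, where the genotypes overlapped. This change over M0 was 0.77 (SE 0.12, adjusted p = 1.66e-06) in TRα1PV and 1.12 (SE 0.12, adjusted p = 2.48e-09) in WT, so the order of levels was M1, M0, M2, lowest first, in both.

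The genotype effect on Ptgs1, as log2 of TRα1PV over WT, was 0.52 (SE 0.12, adjusted p = 0.00163) in M0, 0.97 (SE 0.15, adjusted p = 2.11e-05) in M1 and 0.16 (SE 0.12, adjusted p = 0.354) in M2. The M0 call held in all 18 alternatives run and the M1 call in all 17. The effect was larger in M1 than in M2 by 0.80 (SE 0.19, adjusted p = 0.00396), which held in all 27 alternatives (0.67 to 0.94 with 1 library left out). Between M1 and M0 the difference for Ptgs1 was 0.45 (SE 0.19, adjusted p = 0.0715). It passed under DESeq2 (adjusted p = 0.0458), without WT M1 replicate 1 (adjusted p = 0.0461) or 4 (adjusted p = 0.0202), and without TRα1PV M0 replicate 2 (adjusted p = 0.0317).

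Ptgs1 is also a platelet enzyme, and some megakaryocyte and platelet markers were higher in TRα1PV as well. Of 3 tested, 2 were called higher in M0, 2 in M1 and 1 in M2, and none lower. Over the 5 genes of that marker list the summed level was 218 to 375 CPM in TRα1PV M0 and 151 to 213 CPM in WT M0. It was 62.5 to 98.0 CPM in TRα1PV M1 and 51.8 to 67.7 CPM in WT M1. In M2, where Ptgs1 was not called, it was 85.6 to 119 CPM in TRα1PV and 49.6 to 89.9 CPM in WT. The genotypes thus overlapped in this sum in M1 and M2, but not in M0. Of the 3 tested, Pf4 (0.88, adjusted p = 4.45e-05) and Ppbp (1.40, adjusted p = 2.75e-05) were higher in TRα1PV M0. Pf4 made up most of the sum, at 302 CPM in TRα1PV M0 and 164 CPM in WT M0, while the platelet glycoprotein genes Gp1ba (0.0564 CPM in TRα1PV M0 and 0.0329 CPM in WT M0) and Gp9 (0.0150 CPM in TRα1PV M0 and 0.00933 CPM in WT M0) were near 0. The part of such cells in the Ptgs1 result was not tested. Gm43621, a gene model on the opposite strand that shares exon sequence with Ptgs1, averaged at most 0.345 CPM in any group.

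Of the prostaglandin E synthases, Ptges, the inducible microsomal form, was high in M1. It had 167, 104, 130.2, 128 and 86.0 CPM in TRα1PV M1 and 101, 86.3, 107, 119.6 and 108 CPM in WT M1. In M0 it had 1.04, 1.81, 0.723, 1.15 and 0.915 CPM in TRα1PV and 2.07, 1.56, 2.09, 1.86 and 1.35 CPM in WT. M1 and M0 were far apart in both genotypes, while TRα1PV and WT overlapped in either state. The log2 change of M1 over M0 was 6.81 (SE 0.20, adjusted p = 3.35e-23) in TRα1PV and 5.86 (SE 0.19, adjusted p = 4.22e-22) in WT. The difference between these changes, 0.94 (SE 0.27, adjusted p = 0.011), was called in all 28 alternatives run. In M2, Ptges averaged 1.31 ± 0.294 CPM in TRα1PV and 1.62 ± 0.381 CPM in WT (SD, n = 5 each), not told apart from M0 in TRα1PV (0.28, adjusted p = 0.32) or in WT (-0.13, adjusted p = 0.658).

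The parts of that difference were a log2 genotype change of -0.70 (SE 0.23, adjusted p = 0.0207) in M0 and one of 0.24 (SE 0.15, adjusted p = 0.265) in M1. The M0 call was lost with limma-voom (adjusted p = 0.063), with only the M0 libraries fitted (adjusted p = 0.0651) and once a covariate for reads outside genes was added (-0.57, adjusted p = 0.118). It was also lost without TRα1PV M0 replicate 3 (adjusted p = 0.0878) and without WT M0 replicate 1 (adjusted p = 0.054) or 3 (adjusted p = 0.0558). Ptges had 33 to 72 reads per library in TRα1PV M0 and 44 to 85 in WT M0. Stromal markers were lower in TRα1PV M0 as well, with all 7 tested called. Summed over 9 genes they had 1.28 to 2.80 CPM in TRα1PV M0 and 7.05 to 24.1 CPM in WT M0. They were also lower in TRα1PV in M1 (5 of 7 called) and M2 (6 of 7 called), where Ptges was not called between genotypes. The part of stromal cells in the Ptges result was not tested.

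Ptges2, a second membrane-associated form, changed less and was above M0 in both stimulated states. In TRα1PV it averaged 5.48 ± 0.422 CPM in M0, 10.2 ± 1.04 CPM in M1 and 12.0 ± 0.788 CPM in M2 (SD, n = 5 each). In WT the means were 7.40 ± 1.17 CPM in M0, 10.8 ± 1.11 CPM in M1 and 14.3 ± 0.809 CPM in M2 (SD, n = 5 each). Neither stimulated state overlapped M0 in either genotype. The change of M1 over M0 was 0.90 (SE 0.096, adjusted p = 7.67e-10) in TRα1PV and 0.55 (SE 0.096, adjusted p = 6e-06) in WT, or 0.59, adjusted p = 1.22e-06, in TRα1PV and 0.36, adjusted p = 0.000104, in WT with the covariate for reads outside genes. That of M2 over M0 was 1.14 (SE 0.095, adjusted p = 1.24e-11) in TRα1PV and 0.95 (SE 0.095, adjusted p = 7.39e-10) in WT. M1 was below M2 in TRα1PV (-0.24, adjusted p = 0.0209) and WT (-0.40, adjusted p = 0.000317), the TRα1PV value being lost without TRα1PV M2 replicate 1 (adjusted p = 0.0606) or TRα1PV M1 replicate 4 (adjusted p = 0.0594) or 5 (adjusted p = 0.0551).

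Between genotypes in M0, Ptges2 had 5.74, 5.77, 4.96, 5.08 and 5.85 CPM in TRα1PV and 8.50, 5.54, 7.14, 8.21 and 7.61 CPM in WT. WT M0 replicate 2 was the only WT library among the TRα1PV ones, and the log2 change was -0.44 (SE 0.096, adjusted p = 0.00118), or -0.53, adjusted p = 2.9e-05, without it. With a covariate for reads outside genes it was -0.24, adjusted p = 0.0268. The M2 change, -0.25 (SE 0.093, adjusted p = 0.0741), was not called but passed with DESeq2 (adjusted p = 0.04), limma-voom (adjusted p = 0.046) and only the M2 libraries fitted (adjusted p = 0.0159). The difference of the genotype effect on Ptges2 between M1 and M0, 0.35 (SE 0.14, adjusted p = 0.053), also fell short, and passed under DESeq2 (adjusted p = 0.0333), with RLE factors (adjusted p = 0.0491) and without WT M0 replicate 2 (0.44, adjusted p = 0.00438). It passed as well without WT M1 replicate 1 (adjusted p = 0.0323) or 2 (adjusted p = 0.0483), TRα1PV M0 replicate 2 (adjusted p = 0.0489), or TRα1PV M1 replicate 4 (adjusted p = 0.0377) or 5 (adjusted p = 0.0422).

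Hpgds, which makes prostaglandin D2, was highest in M0 in both genotypes. It had 313, 312, 394, 372 and 364 CPM in TRα1PV M0 and 235, 445, 295, 258 and 334 CPM in WT M0. The TRα1PV M0 libraries lay inside the WT M0 range, whose top was replicate 2. In M1 it averaged 74.9 ± 7.77 CPM in TRα1PV and 76.9 ± 7.35 CPM in WT (SD, n = 5 each). The log2 change of M1 over M0 was -2.23 (SE 0.13, adjusted p = 6.66e-16) in TRα1PV and -2.03 (SE 0.13, adjusted p = 6.46e-15) in WT, and that of M2 over M0 was -1.54 (SE 0.13, adjusted p = 1.06e-11) in TRα1PV and -1.77 (SE 0.13, adjusted p = 7.87e-13) in WT. M1 was below M2 in TRα1PV (-0.69, adjusted p = 1.33e-05), and in WT this did not pass (-0.25, adjusted p = 0.0678), though it did without WT M2 replicate 1 (adjusted p = 0.0373) or WT M1 replicate 3 (adjusted p = 0.036), with only the groups compared (adjusted p = 0.00663) and with the covariate for reads outside genes (adjusted p = 0.00466). The difference between those changes in Hpgds, -0.43 (SE 0.18, adjusted p = 0.0775), passed without TRα1PV M2 replicate 1 (adjusted p = 0.0317) or WT M2 replicate 4 (adjusted p = 0.0478), with only the groups compared (adjusted p = 0.022) and with the covariate for reads outside genes (adjusted p = 0.0228).

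The summed macrophage markers were also lower in M1 and M2 than in M0, with 3 higher and 6 lower of 10 in TRα1PV M1 and 3 higher and 7 lower in WT M1, and 1 higher and 8 lower in TRα1PV M2 and 0 higher and 5 lower in WT M2. Their part in the changes of Hpgds and Hpgd between states was not tested.

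Between genotypes, Hpgds was called in M2. It had 91.6, 129, 125, 129 and 129 CPM in TRα1PV M2 and 78.2, 95.5, 95.5, 105 and 84.3 CPM in WT M2, with TRα1PV replicate 1 inside the WT range and the other 4 above it. The log2 change was 0.40 (SE 0.13, adjusted p = 0.0361). Leaving out any 1 of 8 libraries ended the call (0.34 to 0.48 over all 10 such fits), namely TRα1PV M2 replicate 2, 3, 4 or 5 or WT M2 replicate 1, 2, 3 or 5. The highest was adjusted p = 0.107, without WT M2 replicate 1. The covariate for reads outside genes also ended it (0.24, adjusted p = 0.0983). In M0 the genotype change of Hpgds was 0.16 (SE 0.12, adjusted p = 0.348), and 0.32, adjusted p = 0.0188, without WT M0 replicate 2. Hpgds is also a mast cell enzyme, and mast cell and basophil markers summed to 0.346 to 1.17 CPM in TRα1PV M2 and 0.180 to 0.718 CPM in WT M2 over 10 genes, neither of the 2 tested being called there. In M0 they summed to 1.61 to 3.57 CPM in TRα1PV and 0.818 to 1.47 CPM in WT, where Kit and Hdc, the only 2 tested, were higher in TRα1PV. In M1, where mean Hpgds was lowest, the same markers had their highest sums. These were 5.44 to 8.82 CPM in TRα1PV M1 and 5.96 to 8.57 CPM in WT M1, with neither tested marker called between genotypes. Their part in the Hpgds result was not tested.

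Ptgis, prostacyclin synthase, was near the limit of detection, with 13 reads in 6 of 30 libraries. The reads numbered 1 in TRα1PV M1 and 3 in WT M1, 0 in TRα1PV M2 and 9 in WT M2, and 0 in TRα1PV M0 and 0 in WT M0. A count of 0 allows up to 0.0139 CPM in TRα1PV M0, 0.0178 CPM in WT M0 and 0.0158 CPM in TRα1PV M2, by counting error only.

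Hpgd, which inactivates prostaglandins, had the largest fall of the 8 genes. In M0 it had 31.5, 31.9, 40.5, 40.5 and 37.6 CPM in TRα1PV and 16.4, 30.9, 17.4, 12.7 and 20.6 CPM in WT. Every TRα1PV M0 library was above every WT M0 library, by a narrow margin over WT replicate 2. In M1, 7 reads were counted over the 5 TRα1PV libraries and 12 over the 5 WT libraries, 0 to 3 and 1 to 5 per library. The log2 change over M0 was -9.41 (SE 0.32, adjusted p = 6.33e-22) in TRα1PV and -7.77 (SE 0.30, adjusted p = 2.36e-20) in WT, sizes that rest on those few reads. In M2, Hpgd had 3.66, 3.11, 4.00, 4.23 and 4.35 CPM in TRα1PV and 1.74, 2.06, 2.40, 2.76 and 1.88 CPM in WT, again with no overlap between genotypes. The change of M2 over M0 was -3.23 (SE 0.18, adjusted p = 7.88e-16) in TRα1PV and -3.18 (SE 0.19, adjusted p = 6.03e-15) in WT, so the order was M1, M2, M0, lowest first, in both.

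The genotype effect on Hpgd was 0.89 (SE 0.16, adjusted p = 0.000109) in M0, 1.86-fold higher in TRα1PV, and 0.85 (SE 0.19, adjusted p = 0.00345) in M2, 1.80-fold higher. It was called in all 18 alternatives run in M0 and all 17 in M2, with ranges of 0.77 to 1.12 in M0 and 0.78 to 0.95 in M2 when 1 library was left out. Without WT M0 replicate 2 the M0 value was 1.12, adjusted p = 2.15e-07. In M1 the genotype value was -0.75 (SE 0.82, adjusted p = 0.56), at a depth that cannot show a change of this size. A difference of the genotype effect on Hpgd was not shown between M2 and M0 (-0.047, adjusted p = 0.992) or between M1 and M0 (-1.64, adjusted p = 0.153), though the M1 minus M0 value passed without WT M0 replicate 2 (-1.87, adjusted p = 0.0381).

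In the lipoxygenase branch, Alox5ap, which presents arachidonic acid to Alox5, was detected at over 100 CPM in every library. It had 211 to 268 CPM in TRα1PV M0 and 209 to 243 CPM in WT M0. In M1 it had 129 to 177 CPM in TRα1PV and 133 to 154 CPM in WT, and in M2 138 to 165 CPM in TRα1PV and 144 to 164 CPM in WT. Both stimulated states lay below M0 without overlap, and M1 and M2 overlapped. The change of M1 over M0 was -0.70 (SE 0.077, adjusted p = 1.44e-09) in TRα1PV and -0.65 (SE 0.077, adjusted p = 8.06e-09) in WT, and that of M2 over M0 -0.70 (SE 0.077, adjusted p = 4.52e-09) in TRα1PV and -0.50 (SE 0.077, adjusted p = 2.02e-06) in WT. Alox5ap was not told apart between genotypes in M0 (0.089, adjusted p = 0.415), M1 (0.035, adjusted p = 0.794) or M2 (-0.10, adjusted p = 0.371). Gm19719, an antisense model that shares exon sequence with Alox5ap, averaged at most 1.40 CPM in any group.

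Alox5, the lipoxygenase of the leukotriene branch, stayed below 1 CPM in all 30 libraries. It had 22 to 64 reads per library in TRα1PV M0 and 25 to 34 in WT M0, 0 to 5 in TRα1PV M1 and 0 to 6 in WT M1, and 11 to 20 in TRα1PV M2 and 7 to 21 in WT M2. The change of M1 over M0 was -3.04 (SE 0.48, adjusted p = 1.34e-06) in TRα1PV and -3.56 (SE 0.52, adjusted p = 3.68e-07) in WT. That of M2 over M0 was -1.13 (SE 0.36, adjusted p = 0.00801) in TRα1PV and -1.08 (SE 0.37, adjusted p = 0.0156) in WT, the WT value being lost without WT M2 replicate 2 (adjusted p = 0.054) or 5 (adjusted p = 0.0527). Markers of granulocytes and their precursors were lower in M1 as well, with 1 higher and 10 lower of 11 tested in TRα1PV and 0 higher and 10 lower in WT and sums of 159.5 to 205 CPM in TRα1PV M1 and 199.6 to 275 CPM in WT M1, against 283 to 479 CPM in TRα1PV M0 and 357 to 497 CPM in WT M0. In M2 they had 2 higher and 5 lower in TRα1PV and 1 higher and 6 lower in WT, with sums of 271 to 386 CPM in TRα1PV M2 and 342 to 422 CPM in WT M2. The part of these cells, and of the macrophage markers, in the changes of Alox5 and Alox5ap was not tested. No genotype difference in Alox5 was called in M0 (-0.020, SE 0.33), M1 (0.51, SE 0.77) or M2 (-0.073, SE 0.40). Alox15, the interleukin-4 response gene of human monocytes, had 46 reads in 15 of 30 libraries. They were 7 in TRα1PV M0 and 4 in WT M0, 2 in TRα1PV M1 and 1 in WT M1, and 17 in TRα1PV M2 and 15 in WT M2, too few to test.

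Counted over the list, M1 against M0 changed all 8 tested genes in both genotypes, 3 higher and 5 lower. The background was 80.7% of tested genes, 40% higher and 40.7% lower, in TRα1PV, and 79.6% of tested genes, 39.4% higher and 40.2% lower, in WT. M2 against M0 changed 7 of 8 in each genotype, 3 higher and 4 lower, over a background of 57.7% of tested genes, 28.3% higher and 29.4% lower, in TRα1PV, and 52.4% of tested genes, 25.2% higher and 27.2% lower, in WT. Between M1 and M2, 7 of 8 were called in TRα1PV, 2 higher and 5 lower in M1 (80.8% of tested genes, 39.8% higher and 41% lower), and 6 of 8 in WT, 2 higher and 4 lower (78.5% of tested genes, 38.9% higher and 39.6% lower). For all 8 genes, no M1 library overlapped the M0 libraries, as held for 70.1% of tested genes in TRα1PV and 61.8% in WT. Those of M2 and M0 did not overlap for 7 of 8 in each (47.3% in TRα1PV and 35.4% in WT), and those of M1 and M2 for 6 of 8 in TRα1PV (70.7%) and 5 of 8 in WT (67.2%). Medians over the 8 were -1.46 (TRα1PV) and -1.34 (WT) for M1 over M0 and -0.21 (TRα1PV) and -0.32 (WT) for M2 over M0, beside -0.021, -0.018, -0.024 and -0.023 over all tested genes in that order. Most expressed genes changed between states, so these counts are no result about the list.

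**Figure D3:**
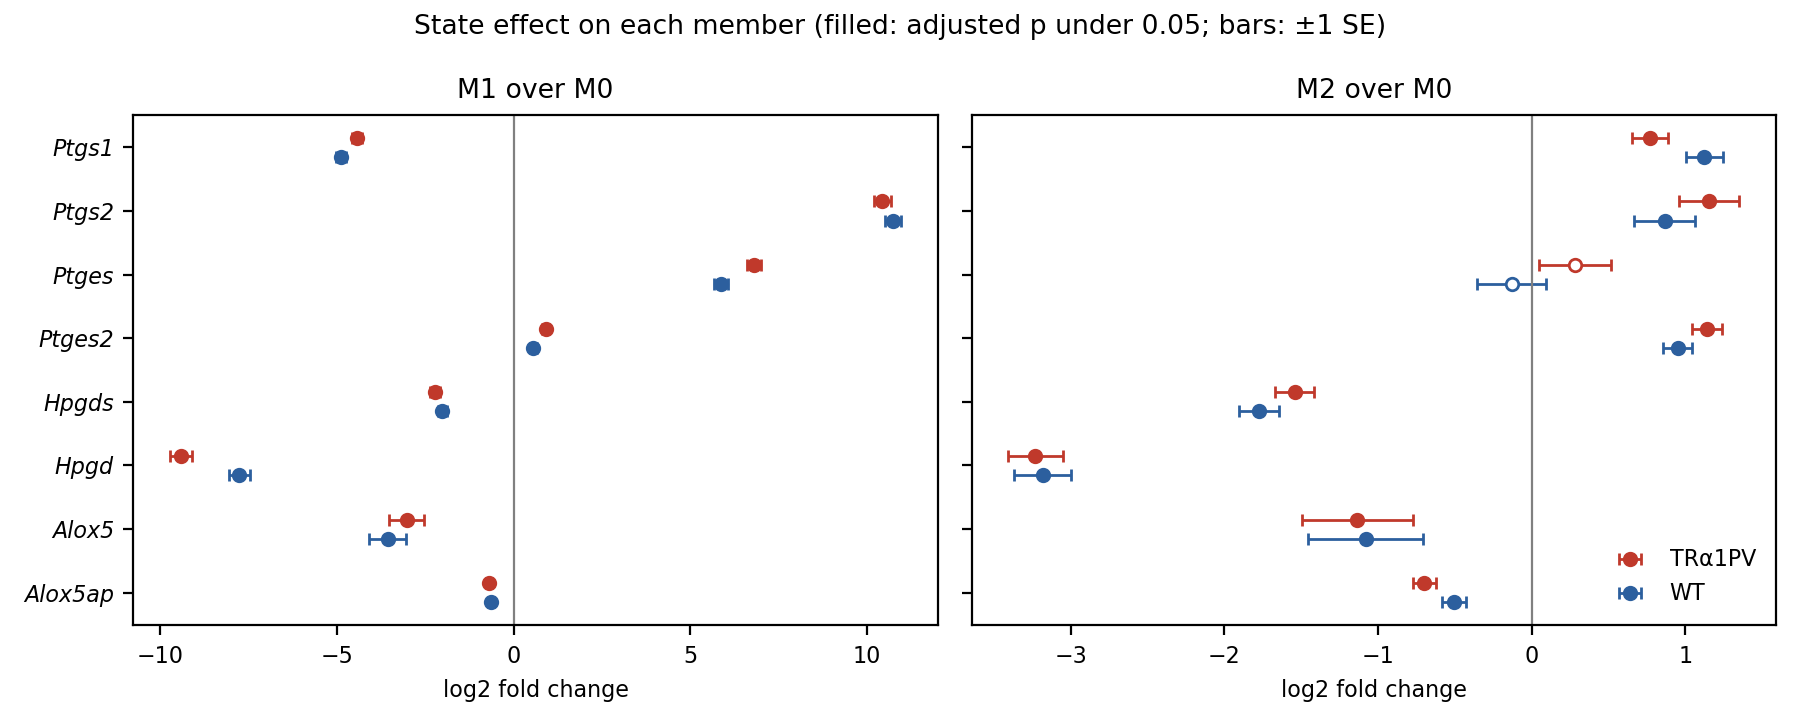
Log2 fold change of M1 over M0 (left) and M2 over M0 (right) for the 8 tested genes (rows) in TRα1PV (upper point) and WT (lower point); bars are 1 SE to each side and open points were not called. In M1, Ptgs2 and Ptges lie far right of 0 and Hpgd and Ptgs1 far left in both genotypes.

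For genotype, 4 of 8 were called in M0 (2 higher and 2 lower in TRα1PV), 2 of 8 in M1 (1 higher and 1 lower) and 2 of 8 in M2 (both higher). The background was 26% of tested genes, 12% higher and 14% lower, in M0, 20% of tested genes, 9.74% higher and 10.2% lower, in M1, and 13.1% of tested genes, 6.14% higher and 6.96% lower, in M2. Genotypes did not overlap for Ptgs1 and Hpgd in M0, Ptgs1 in M1 and Hpgd in M2, as held for 12.5% of tested genes in M0, 11.6% in M1 and 13.8% in M2. The median log2 change over the 8 was 0.035 in M0, -0.0021 in M1 and -0.088 in M2, beside -0.0095, 0 and -0.0069 over all tested genes. The genotype effect differed between M1 and M0 for 1 of 8, Ptges, higher (26.6% of tested genes, 13.3% higher and 13.3% lower), and between M1 and M2 for 1 of 8, Ptgs1, higher (21.8% of tested genes, 10.6% higher and 11.2% lower). Between M2 and M0 edgeR called 0 of 8 (2.16% of tested genes, 0.701% higher and 1.46% lower), with 1 of 8 at an unadjusted p under 0.05, and DESeq2 and limma-voom also called 0. Comparisons within a genotype share their M0 libraries.

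**Figure D4:**
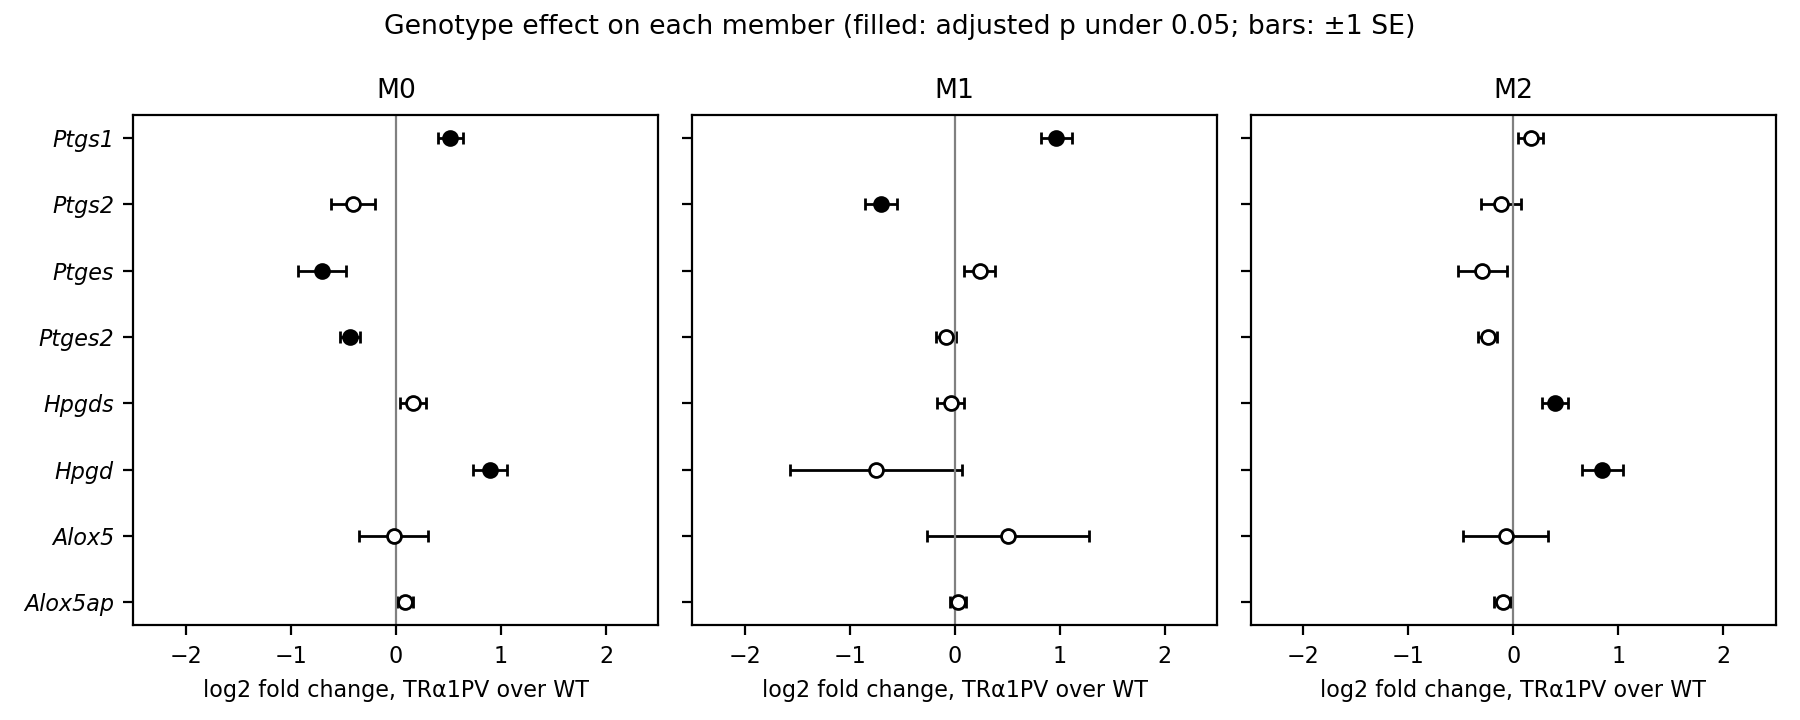
Log2 fold change of TRα1PV over WT (horizontal axes) for the 8 tested genes (rows) in M0, M1 and M2; filled points were called and bars are 1 SE to each side. Ptgs1 and Hpgd lie right of 0 in M0, Ptgs1 right and Ptgs2 left of 0 in M1, and Hpgd and Hpgds right of 0 in M2.

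The genes whose log2 CPM ran most like each of the 8 across the 30 libraries were, with Pearson's r, Cd300lb (0.993) and Rab3il1 (0.993) for Ptgs1 and Map4 (0.998) and Clic5 (0.997) for Ptgs2. For Ptges they were Hectd4 (0.994) and Tap2 (0.994), and for Ptges2 Rpn2 (0.976) and Mdh2 (0.968). For Hpgds they were Arhgap18 (0.982) and Ddi2 (0.980), and for Hpgd Wwp1 (0.993) and Rcbtb2 (0.992). For Alox5 they were Slc25a23 (0.925) and Acp6 (0.924), and for Alox5ap Ptpn18 (0.959) and Mrpl24 (0.958). The libraries share the 3 states, which move most genes, so these values are descriptions and carry no test.

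Around the 10 genes, 57 other genes of the pathway were listed in 7 roles, of which 55 were matched to 1 gene each and 37 were tested. M1 over M0 had 11 higher and 25 lower in TRα1PV and 11 higher and 22 lower in WT, with median log2 changes of -0.67 and -0.80, where 40% of all tested genes were higher and 40.7% lower in TRα1PV and 39.4% higher and 40.2% lower in WT. M2 over M0 had 16 higher and 12 lower in TRα1PV and 18 higher and 11 lower in WT, with medians of 0.15 and 0.20, over 28.3% higher and 29.4% lower in TRα1PV and 25.2% higher and 27.2% lower in WT. TRα1PV over WT had 7 higher and 10 lower in M0, 5 higher and 8 lower in M1 and 3 higher and 8 lower in M2, with medians of -0.13, -0.18 and -0.14, over 26%, 20% and 13.1% of all tested genes called in either direction in that order. The 17 calls in M0 were 11 without TRα1PV M0 replicate 3, 10 with only the M0 libraries and 8 with the covariate for reads outside genes, and the 11 in M2 were 17 with only the M2 libraries. The counts by role that follow are of 4 to 10 genes each and are to be read against the same shares.

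Of 10 tested genes that release fatty acids, M1 over M0 had 5 higher and 4 lower in TRα1PV and 4 higher and 4 lower in WT. Pla2g4a, the cytosolic phospholipase A2 that feeds the cyclooxygenases, averaged 367 CPM in TRα1PV M1 against 8.84 CPM in TRα1PV M0, and 394 CPM in WT M1 against 8.39 CPM in WT M0. It rose in M1 in TRα1PV (5.37, adjusted p = 1.98e-28) and WT (5.56, adjusted p = 1.24e-28), and in M2 in TRα1PV (1.93, adjusted p = 2.6e-18) and WT (1.92, adjusted p = 6.1e-18). Pla2g7, which hydrolyses platelet-activating factor, was higher in M1 (2.97 in TRα1PV and 3.13 in WT) and lower in M2 (-1.75 in TRα1PV and -1.19 in WT). In M2, Mgll, monoacylglycerol lipase, was higher in TRα1PV (2.66, adjusted p = 6.41e-10) and WT (1.88, adjusted p = 1.18e-06), and the secreted phospholipase Pla2g5 was higher in TRα1PV (2.40, adjusted p = 5.12e-08) and WT (3.01, adjusted p = 3.42e-10).

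Of 5 tested other prostanoid synthesis genes, M1 over M0 had 0 higher and 5 lower in TRα1PV and 1 higher and 4 lower in WT, and M2 over M0 2 higher and 1 lower in TRα1PV and 3 higher and 1 lower in WT, where Prxl2b, a prostamide and prostaglandin F synthase, fell in TRα1PV (-0.88, adjusted p = 1.55e-06) and WT (-1.11, adjusted p = 4.11e-08). Of 4 tested genes of transport and breakdown, M1 over M0 had 1 higher and 3 lower in TRα1PV and 0 higher and 2 lower in WT. Of 5 tested prostanoid receptors, Ptgir, the prostacyclin receptor, was above M0 in M1 (3.10 in TRα1PV and 3.02 in WT) and in M2 (2.47 in TRα1PV and 2.57 in WT). It averaged 17.5, 151 and 97.5 CPM in TRα1PV M0, M1 and M2, and 14.8, 120.5 and 87.9 CPM in WT M0, M1 and M2. The prostaglandin E2 receptor gene Ptger4, which shares exon sequence with Ttc33 on the other strand, was lower in M2 (-1.07 in TRα1PV and -1.01 in WT) and in M1 (-1.99 in TRα1PV and -1.80 in WT). Ptger2, another prostaglandin E2 receptor, was lower in M1 in TRα1PV (-2.15, adjusted p = 7e-15) and WT (-2.51, adjusted p = 6.43e-17).

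In the leukotriene branch, all 6 tested genes of synthesis and breakdown fell in M1 in both genotypes, where 40.7% of all tested genes fell in TRα1PV and 40.2% in WT. Cyp4f18, a leukotriene B4 hydroxylase that shares exon sequence with Zfp961 on the other strand, averaged 0.837 CPM in TRα1PV M1 against 22.3 CPM in TRα1PV M0, and 1.16 CPM in WT M1 against 27.8 CPM in WT M0. Ggt5, which converts leukotriene C4 to D4, was also lower in M1 (-4.02 in TRα1PV and -4.12 in WT), as was the epoxide hydrolase Ephx1 (-4.59 in TRα1PV and -4.34 in WT). Mgst2, a glutathione transferase that can make leukotriene C4, was lower in M2 (-2.68 in TRα1PV and -2.42 in WT). Of 6 tested receptors for leukotrienes and resolution mediators, M1 over M0 had 4 higher and 2 lower in TRα1PV and 4 higher and 2 lower in WT. Gpr18, described as a receptor for resolvin D2, was higher in M1 (4.18 in TRα1PV and 5.36 in WT). Cysltr2, a receptor for cysteinyl leukotrienes, was higher in M2 (2.202 in TRα1PV and 2.07 in WT), and Fpr2, a formyl peptide receptor that also binds lipoxin A4, was lower in M2 in TRα1PV (-3.26, adjusted p = 1.22e-07) and WT (-1.84, adjusted p = 0.00269).

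Between genotypes, Ggt5 was higher in TRα1PV in all 3 states. It averaged 35.3 CPM in TRα1PV M0 and 16.8 CPM in WT M0, 2.17 CPM in TRα1PV M1 and 0.960 CPM in WT M1, and 18.5 CPM in TRα1PV M2 and 10.2 CPM in WT M2. Its log2 changes were 1.07 (SE 0.13, adjusted p = 3.6e-07) in M0, 1.17 (SE 0.20, adjusted p = 0.000117) in M1 and 0.86 (SE 0.13, adjusted p = 4.84e-05) in M2. Abcc1, an exporter of leukotriene C4, was lower in M0 (-0.32, adjusted p = 0.00906), M1 (-0.54, adjusted p = 9.54e-05) and M2 (-0.51, adjusted p = 0.000305), its M0 call being lost with the covariate for reads outside genes (-0.17, adjusted p = 0.142). Ptger2 was lower in M0 (-0.84, adjusted p = 3.68e-06), M1 (-0.49, adjusted p = 0.0231) and M2 (-0.83, adjusted p = 8.03e-06).

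In M0, Mgst2 (0.80, adjusted p = 0.000251), Gpr18 (0.82, adjusted p = 0.0013) and Fpr2 (1.15, adjusted p = 0.00954) were also higher in TRα1PV. Levels were low for Gpr18 (1.08 CPM in TRα1PV M0 and 0.618 CPM in WT M0). They were low for Fpr2 too (2.10 CPM in TRα1PV M0 and 0.944 CPM in WT M0), where the libraries overlapped. Fpr2 also shares exon sequence with Fpr3 on the same strand, which leaves its count uncertain in every state. The Fpr2 value was lost with only the M0 libraries fitted (adjusted p = 0.0595) and with the covariate (adjusted p = 0.0623). The secreted phospholipase Pla2g2e (-1.45, adjusted p = 0.000296) and Cmklr1, the chemerin receptor also described for resolvin E1 (-0.50, adjusted p = 0.00145), were lower in M0. Pla2g2e averaged only 0.495 CPM in TRα1PV M0 and 1.35 CPM in WT M0. In M1, Cbr1, a carbonyl reductase that acts on prostaglandin E2 (0.49, adjusted p = 9.1e-05), the leukotriene B4 receptor Ltb4r1 (1.51, adjusted p = 0.00247) and the phospholipase Pla2g12a (0.54, adjusted p = 0.00958) were higher, the last not without TRα1PV M1 replicate 3 (adjusted p = 0.0605). Fpr2 (-1.02, adjusted p = 0.00116), Ptges3, the cytosolic prostaglandin E synthase that is also a co-chaperone (-0.52, adjusted p = 0.00154), and Cysltr2 (-0.56, adjusted p = 0.00426) were lower in M1. In M2, Mgll averaged 30.4 CPM in TRα1PV and 10.4 CPM in WT (1.55, adjusted p = 0.000104), and Tbxas1, thromboxane A synthase, 218 CPM in TRα1PV and 313 CPM in WT (-0.52, adjusted p = 0.000173). Cyp4f18 was lower in M2 (-0.78, adjusted p = 3.23e-05), and Mgst2 passed narrowly there (0.55, adjusted p = 0.0471) and lost the call in 12 of 17 alternatives, 8 of them among 10 fits with 1 library left out.

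**Figure D5:**
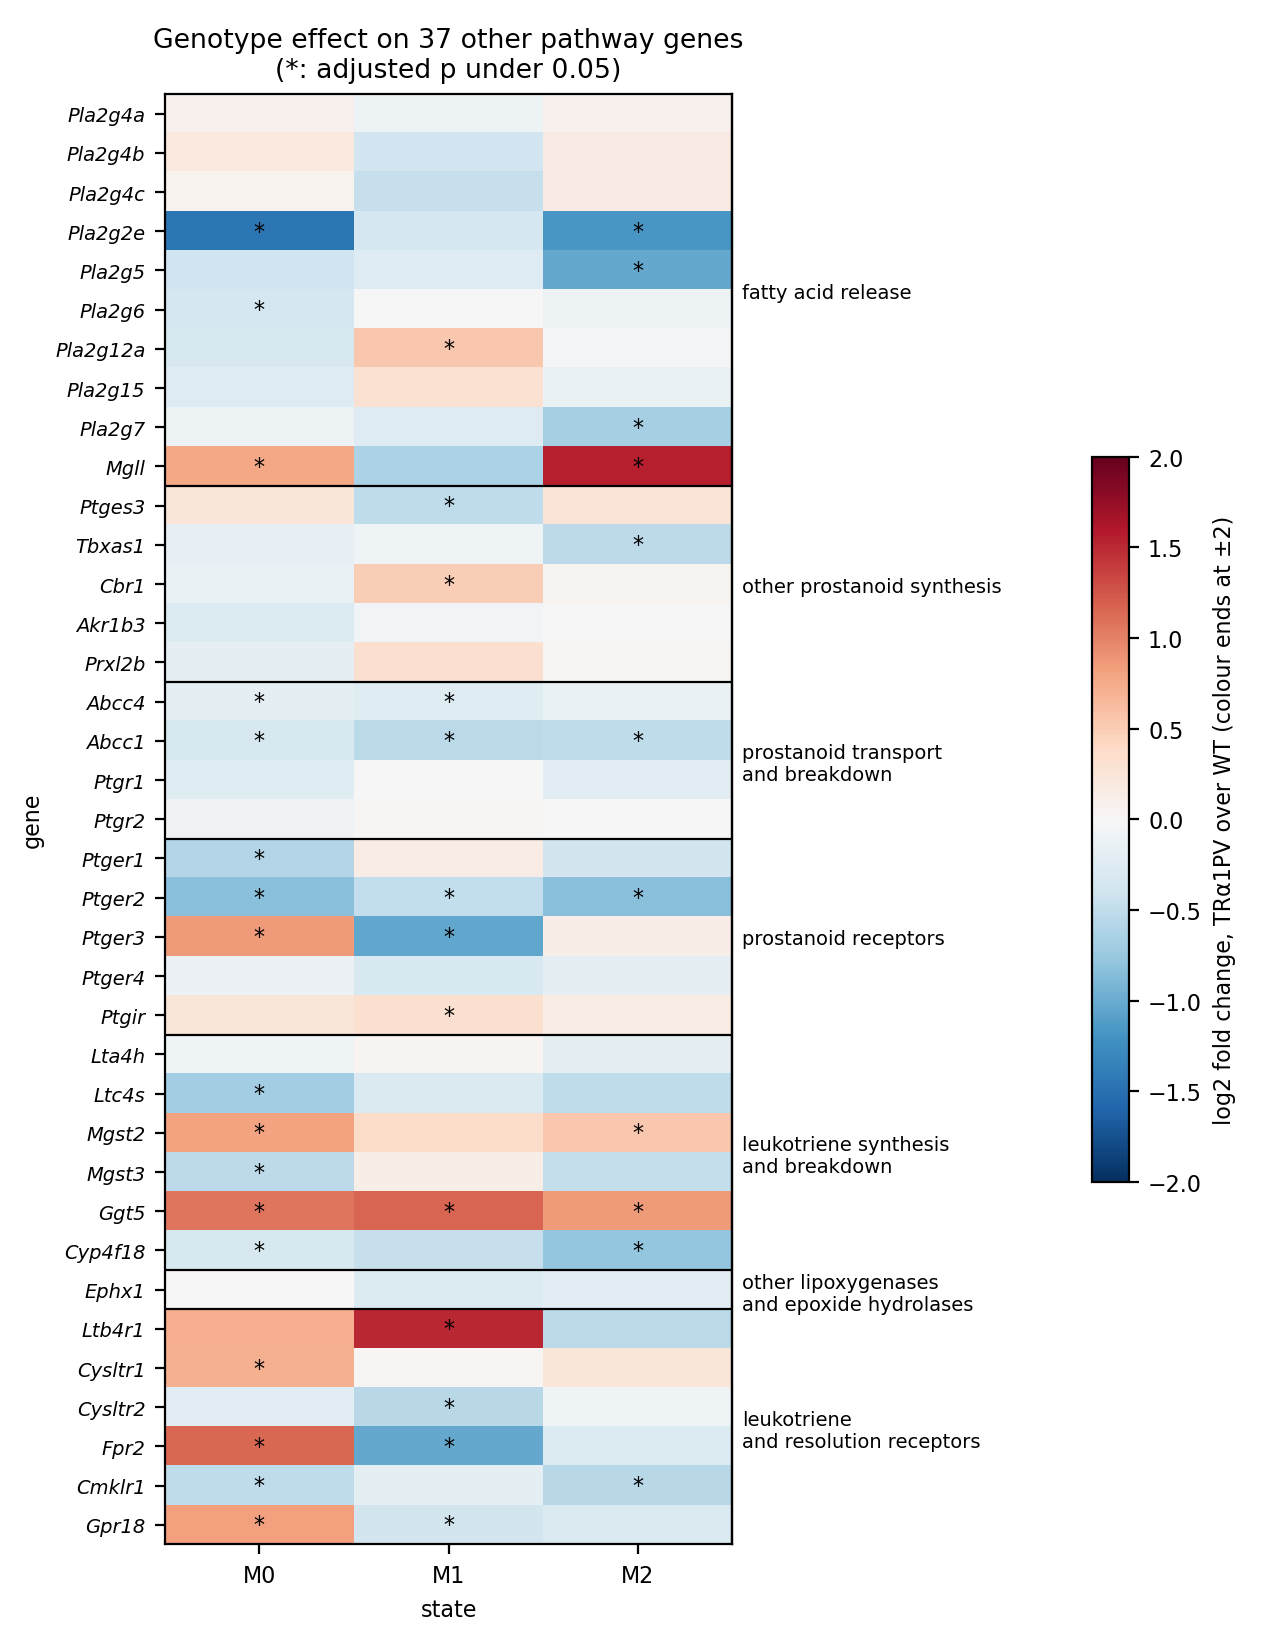
Log2 fold change of TRα1PV over WT (colour scale) for the 37 tested other genes of the pathway (rows, grouped by role) in M0, M1 and M2 (columns); asterisks mark an adjusted p under 0.05. Ggt5 is higher and Abcc1 lower in TRα1PV in all 3 columns, and Fpr2 is higher in M0 and lower in M1.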

How the data were processed

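Polyadenylated RNA of 30 macrophage cultures was sequenced from KAPA mRNA HyperPrep libraries, per the labels' protocols. The submitters' processing notes name Trimmomatic 0.39, HISAT2 2.2.1, HTSeq 1.99.2 and build GRCm39. The files hold raw counts of reads per Ensembl gene, as deposited by the authors. No source at hand gives the annotation release or strand setting. In GENCODE M21, Ptger2, Mgll, Tbxas1, Pla2g7 and Prxl2b also share exon sequence with a gene on the other strand. Fpr2 and Ephx1 share it with one on the same strand. How reads in such stretches were counted is not known. Reads assigned to no gene, 22 to 28.1% per library, were left out. Symbols came from GENCODE M21 and matched 52081 of 55414 IDs.

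Counts of the 30 libraries were fitted together with 1 mean per group (24 residual degrees of freedom) by edgeR 4.0.16 (R 4.3.3) with TMM factors, after filterByExpr (minimum count 10, total 15). SE, approximate, is the size of the log2 change over the root of the F statistic. Alternatives were RLE factors, no filter, DESeq2 1.42.0, limma-voom 3.58.1, a replicate block, only the groups compared, and each library left out. The fit was also run on simulated counts, for TRα1PV over WT in M0 only. These were drawn from the fit's own model with independent libraries, so they could not show a batch or pairing effect. Replicates differed beyond counting noise in all 60 pairs (chi-square per degree of freedom 6.69 to 206).

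The 10 genes, the pathway and marker lists and the comparisons were chosen with earlier results of these data known. Other pathway genes named are, per comparison of genotypes or with M0, at most the 4 called with the smallest p in each direction, and those whose genotype effect differed between states, with values of the same gene in other comparisons beside them; genes like a member are the 2 with the highest Pearson's r.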

Additional observations from a re-analysis of the deposited data

Results flagged for a closer look

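5 of the 48 combinations of a gene and a group checked had a library far from the other 4, where chance flags about 1 in 20. These were Ptgs1 in WT M0 replicate 4 (139 CPM, above the rest), Ptgs2 in TRα1PV M1 replicate 5 (3476 CPM, above the rest), Hpgds in TRα1PV M2 replicate 1 (91.6 CPM, below the rest), Alox5ap in TRα1PV M2 replicate 1 (165 CPM, above the rest) and Alox5ap in WT M2 replicate 4 (144 CPM, below the rest). TRα1PV M2 replicate 1 stood apart in both Hpgds and Alox5ap.

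The genotype effect differed between states for 17 pairs of a gene and a comparison of states, 2 of them among the 8 tested genes of the list. For M1 minus M0, these log2 differences were 0.94 for Ptges, 0.85 for Pla2g12a (adjusted p = 0.00371), 0.55 for the lysosomal phospholipase Pla2g15 (adjusted p = 0.0177) and 0.63 for Cbr1 (adjusted p = 0.000297). They were 0.74 for Ptger1 (adjusted p = 0.0324), whose count is uncertain, and -0.75 for Ptges3 (adjusted p = 0.00108). The Ptger1 call was lost in 10 of 28 alternatives, 8 of them among 20 fits with 1 library left out (adjusted p up to 0.0931), and with a covariate for reads outside genes the Pla2g15 value was 0.36, adjusted p = 0.0113. For the receptors Ptger3, Fpr2 and Gpr18 they were -1.89 (adjusted p = 0.00209), -2.17 (adjusted p = 0.000239) and -1.18 (adjusted p = 0.000339). For M2 minus M0, Gpr18 differed by -1.12 (adjusted p = 0.0158), a call lost with limma-voom (-1.08, adjusted p = 0.136), which left 0 pathway calls for that comparison.

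For M1 minus M2, Ptgs1 differed by 0.80, Ltb4r1 by 2.05 (adjusted p = 0.00506), Pla2g12a by 0.57 (adjusted p = 0.0417), Cbr1 by 0.44 (adjusted p = 0.00814) and Tbxas1 by 0.44 (adjusted p = 0.0166). Mgll differed by -2.18 (adjusted p = 0.0367) and Ptges3 by -0.77 (adjusted p = 0.00161). The Pla2g12a call was lost in 16 of 27 alternatives, 15 of them among 20 fits with 1 library left out (adjusted p up to 0.116). That of Mgll was lost in 7 of 27 alternatives, 6 of them among 20 fits with 1 library left out (adjusted p up to 0.122), the other being limma-voom (adjusted p = 0.0895). Where no other tool is named, p-values are from edgeR's quasi-likelihood test, adjusted over all tested genes.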

How the results depend on the processing

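Over 96 results for the 8 tested genes, 1837 of 1924 values under other settings kept the direction and the side of the threshold, 20 lost a call, 36 gained one and 31 changed sign without a call. For the M1 minus M0 difference of the genotype effect the count of called genes was 1, against 2 with RLE factors, 3 with DESeq2, 5 without both M0 libraries numbered 2 and 1 to 3 with 1 library left out. For M1 minus M2 it was 1, against 2 with only the groups compared, 2 with a covariate for reads outside genes and 1 to 2 with 1 library left out. For TRα1PV over WT in M2 it was 2, against 1 with that covariate, 1 to 2 with 1 library left out and up to 3 with other settings. DESeq2, limma-voom and the fit of only the M2 libraries each added Ptges2. The covariate and the removal of both M0 libraries numbered 2 were chosen after seeing the data.

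Sign changes were all in uncalled values, near 0 except for Hpgds in M0. That value was 0.16 in the main fit and passed without WT M0 replicate 2 (0.32, adjusted p = 0.0188). Alox5ap in TRα1PV M1 over M2 was 0.0034 with RLE factors and 0.0034 with DESeq2 (-0.078 to 0.043 with 1 library left out). With the covariate, Hpgds in M0 was -0.050, Alox5 in M0 0.0013 (-0.10 to 0.053 with 1 library left out) and Hpgd in M2 minus M0 0.023 (-0.27 to 0.078). Alox5ap in M1 minus M0 was 0.0062 without both M0 libraries numbered 2. With 1 library left out, genotype values ran over -0.26 to 0.15 for Alox5 in M2, -0.24 to 0.17 for Alox5 in M2 minus M0, -0.042 to 0.077 for Alox5ap in M1 and -0.084 to 0.018 for Hpgds in M1. The cause of these changes was not tested.

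Whether libraries of 1 number pair was not settled. Correlations of their deviations from the group mean ran from -0.374 to 0.331, and in no pair of groups did all 5 match their own number best. The mean correlation for the same number was above 0 in 8 of 9 pairs of groups. The mean for other numbers is no separate reference, because deviations within a group sum to 0. The same-number mean was highest between TRα1PV M2 and M0 (0.184), where 4 of 5 matched their own number best, as they did between TRα1PV M1 and M2. In WT, 3 of 5 did so between M2 and M0 and between M1 and M2. Between M1 and M0 it was 1 of 5 in each genotype. Between genotypes it was 2 of 5 in M0, 1 of 5 in M1 and 3 of 5 in M2. With the replicate number as a block, 2 genes were called for M1 minus M0 and 2 for M1 minus M2, each against 1 without it. The block added Ptges2 to the first (adjusted p = 0.0438) and Hpgds to the second (adjusted p = 0.0462), and in WT M1 over M2 it added Hpgds (adjusted p = 0.0475) and Alox5ap (adjusted p = 0.0423).

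Over all tested genes, calls for TRα1PV over WT in M0 numbered 4072, against 6407 without both M0 libraries numbered 2, 6143 without WT M0 replicate 2 and 2458 with only the M0 libraries. In M1 they numbered 3132, against 5467 with the covariate, and in M2 2055, against 4008 with only the M2 libraries, 1353 without WT M2 replicate 1 and 1270 without WT M2 replicate 5. For M1 minus M0 they numbered 4175, against 6328 without both M0 libraries numbered 2, and for M2 minus M0 339, against 525 with DESeq2, 579 with the covariate and 511 without WT M0 replicate 2. Depth limits Alox5, Alox15, Ptgis and Hpgd in M1, where counts per library were 0 to 6.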
